A study of Mus musculus with 10 samples.

Results

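The cytosolic ribosomal protein genes were examined in the liver of germ-free (GF) mice. They were the genes of the count table whose identifier maps, in the GENCODE annotation of GRCm38, to a protein-coding symbol made of Rpl, Rps or Rplp and a number, with the S6 kinases left out. This gave 79 of the 12148 genes in the table, 48 of the large and 31 of the small subunit. The annotation holds 82 such symbols, and the remaining 3, *Rpl10l*, *Rpl24* and *Rpl39l*, were not analysed here. Wild-type germ-free C57BL/6 mice, which carry no gut microbiota of their own, received gut microbiota-derived extracellular vesicles (MEV) by mouth, 80 μg in PBS 2 times a week for 3 weeks (GF+MEV, 5 mice), or PBS alone on the same schedule (GF+PBS, 5 mice). The MEV came from the gut contents of control mice that carry a microbiota, and the age of the germ-free mice is not given in the sources used here. Whole liver was sequenced, 1 library per mouse. Within GF+PBS, replicates 1 and 3 and replicates 4 and 5 were closer to each other than the rest, with a root mean square difference of 0.53 and 0.50 in log2 CPM over the 300 genes that varied most among GF+MEV livers, where the other 8 pairs differed by 0.68 to 0.85. The study asked how MEV act on the liver transcriptome, and the comparison here asks whether the mRNAs of the translation machinery moved with the treatment.

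Ribosomal proteins bind ribosomal RNA to build the small subunit, which decodes the mRNA, and the large subunit, which joins amino acids. A subunit holds a single copy of nearly every protein, and the liver, which secretes most plasma proteins, makes ribosomes in large numbers. Most mRNAs of these genes begin with a C followed by a run of pyrimidines, the 5′ terminal oligopyrimidine (5′TOP) tract. The kinase complex mTORC1 and the RNA-binding protein LARP1 act on this tract to set how much of the mRNA is translated, a step that mRNA counts do not measure.

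The tract can be read in the annotated start of several members. The windows below run from 20 bases before to 20 bases from the start, which is the base at position 21, in the RefSeq promoter table of build GRCm38.p6. Capitals mark the unbroken run of C and T from a C at the start. The first group was chosen because its starts carry the tract.
*Rpl15*, chr14:18270967-18271006, minus strand: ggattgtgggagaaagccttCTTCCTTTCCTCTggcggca
*Rpl35*, chr2:39005112-39005151, minus strand: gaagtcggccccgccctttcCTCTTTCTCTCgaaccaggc
*Rps6*, chr4:86857348-86857387, minus strand: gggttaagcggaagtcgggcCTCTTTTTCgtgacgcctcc
*Rps27*, chr3:90213629-90213668, minus strand: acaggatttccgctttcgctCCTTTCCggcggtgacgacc
*Rplp2*, chr7:141447631-141447670, plus strand: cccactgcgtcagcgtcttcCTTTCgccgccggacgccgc

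The second group shows 3 of the variant paralogs described below, with the same window.
*Rpl22l1*, chr3:28805488-28805527, plus strand: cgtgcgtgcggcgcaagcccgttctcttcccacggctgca
*Rpl3l*, chr17:24727806-24727845, plus strand: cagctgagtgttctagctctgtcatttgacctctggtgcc
*Rps27l*, chr9:66946066-66946105, plus strand: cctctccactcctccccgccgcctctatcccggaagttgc
None of these 3 listed starts is a C. The listed start of *Rpl7l1*, a further variant paralog, is a C with a run of only 1 base. In *Rpl22l1* a pyrimidine run lies just downstream of the listed start, and a start listed a few bases away would change the reading.

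Of the 79 genes, 59 had an entry in the promoter table. A C at the start followed by at least 4 C or T was found in 13 of them (22.03%), against 3.008% of the 27025 genes of the table. With a looser reading, a run of at least 5 C or T that begins anywhere within 5 bases of the start, the shares were 49.15% and 30.02%. The longest run in a member was 13 bases, in *Rpl15*. Over the 300 bases from 250 before to 50 after the start, read on both strands, the ETS/GABP motif CCGGAAG stood in 24 of the 59 (40.68%, against 9.928% of all genes) and the SP1 motif GGGCGG in 37 (62.71%, against 38.2%). The CTCGCGAG motif stood in 7 (11.86%, against 1.036%) and the YY1 motif AAGATGGC in 6 (10.17%, against 3.19%). The E-box CACGTG stood in 6 (10.17%, against 8.093%) and the glucocorticoid receptor motif AGAACA in 9 (15.25%, against 21.28%). On the sense strand within 40 bases before the start, TATAAA stood in 1 of the 59 (1.695%, against 2.775%). None of these motifs holds another. A match is a run of letters and not a measured binding site. Between the treatment groups, the median log2 fold change was 0.02 for the 13 genes with a tract at the listed start and -0.00 for the 46 without it.

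The ribosomal protein mRNAs did not separate MEV-treated from PBS-treated livers in any of the 3 tests run across all genes. In the quasi-likelihood test of edgeR, with p adjusted by the Benjamini-Hochberg method over all 12147 genes tested, 0 of the 79 genes were called at an adjusted p under 0.05. Over all genes 7.64% were called, 4.12% as higher and 3.52% as lower in GF+MEV livers. At an unadjusted p under 0.05 there was 1 of 79, *Rpl22l1*, where 21.2% of all genes passed that level. DESeq2 and limma-voom called 0 of the 79 as well, each again with 1 gene at an unadjusted p under 0.05. For 0 of the 79 genes the CPM (counts scaled to the library size with edgeR's TMM factors) of the groups failed to overlap, against 7.39% of all genes. All 79 genes were tested, and the lowest count of any of them in a library was 11, in *Rps10*.

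The sizes of the differences were small. The log2 fold change of GF+MEV over GF+PBS lay above 0 in 38 genes and below 0 in 41, with a median of -0.00 and quartiles of -0.03 and 0.03. Over all genes tested the median was also -0.00, with quartiles of -0.12 and 0.11. Over the 2634 tested genes that averaged 50 CPM or more, the quartiles were -0.06 and 0.10. Of these 2634 genes, 188 were called higher and 98 lower. The 70 members at that level had quartiles of -0.03 and 0.02, with 0 called. In 73 of the 79 genes the difference was under 0.1 on the log2 scale. The 95% interval of the difference, from limma-voom, lay within 0.25 either way in 72 of the 79 genes and in 27.7% of all genes. The share over all genes was not matched for level, and 70 of the 79 averaged 50 CPM or more. For the 79 genes the median distance from the centre of the interval to its end was 0.16. The 7 genes with a wider or shifted interval were *Rpl22l1*, *Rpl35*, *Rpl13a*, *Rps10*, *Rpl3l*, *Rpl41* and *Rps21*, of which the first 5 had a mean under 10 CPM. The large subunit genes had a median of 0.01 and the small subunit genes of -0.01. The split between genes above and below 0 moved with the scaling, with 77 of 79 below 0 where counts were scaled by library size alone and 11 of 79 below 0 with an offset for GC content and length, and the calls stayed at 0 in both.

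**Figure D1:**
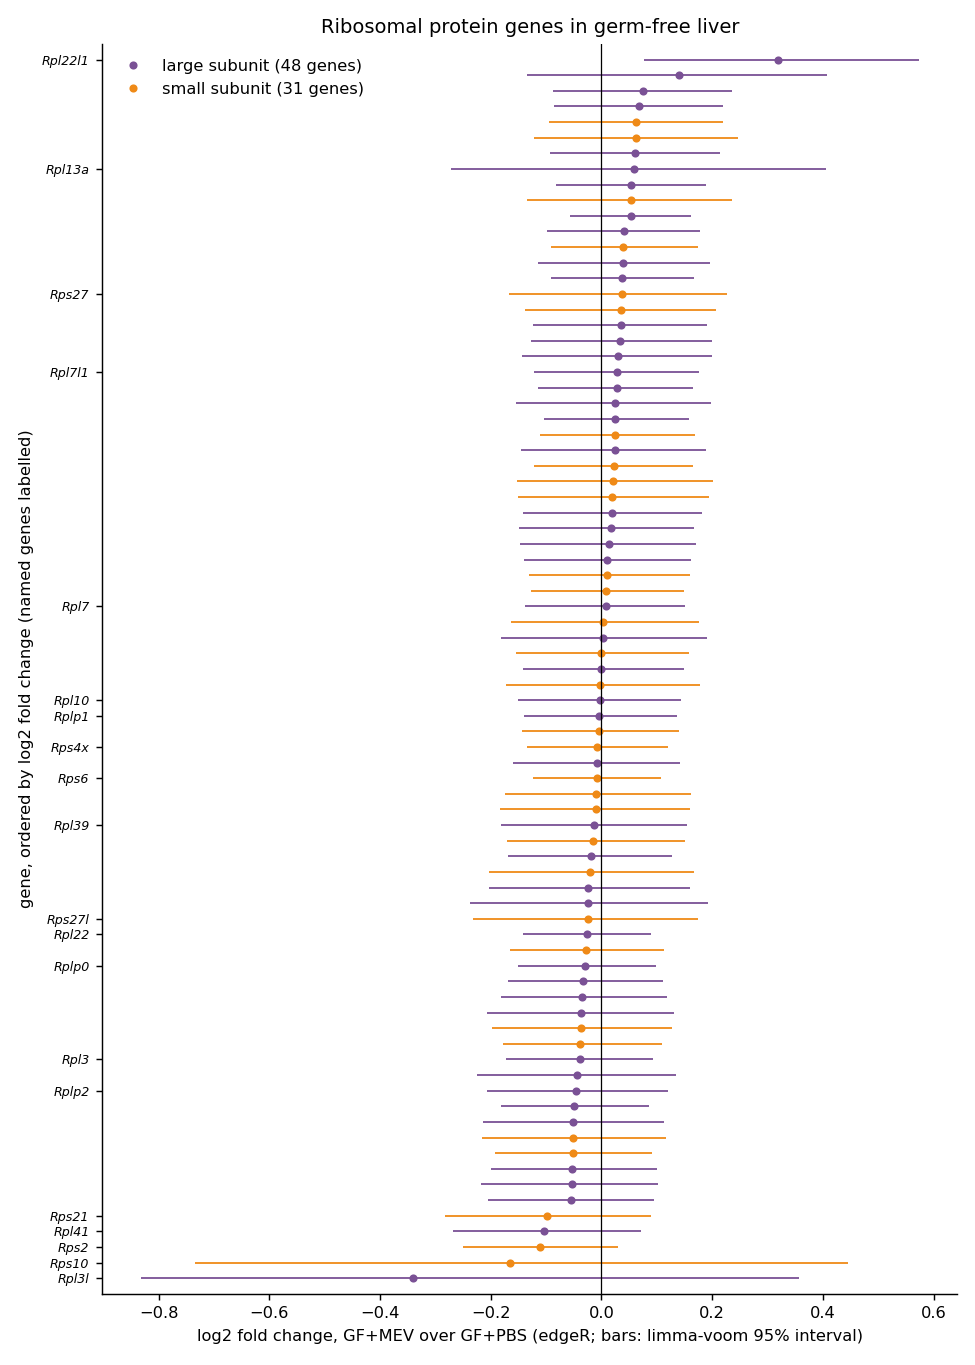
The horizontal axis is the log2 fold change of GF+MEV over GF+PBS livers for each of the 79 ribosomal protein genes, ordered from the highest at the top. Points are edgeR estimates, bars are limma-voom 95% intervals, the colours mark the large (48 genes) and small (31 genes) subunit, and genes chosen by the naming rule are labelled. The bars of 78 genes cross 0, and *Rpl22l1* is the exception.

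As a share of each library the 79 genes were also alike between the groups. Together they held 1.668%, 1.517%, 1.599%, 1.493% and 1.595% of the gene counts in GF+MEV replicates 1 to 5 and 1.850%, 1.549%, 1.7005%, 1.685% and 1.551% in GF+PBS replicates 1 to 5. The highest and the lowest share stood in different groups, and the ranges overlapped. After TMM scaling the sum was 16178 ± 945 CPM in the 5 GF+MEV livers and 16243 ± 1348 CPM in the 5 GF+PBS livers (mean ± SD). GF+MEV replicate 2 carried 9.24% of its counts on 3 genes that collect ribosomal RNA reads, *CT010467.1*, *Gm23935* and *Lars2*, against 0.153% to 0.409% in the other 9 libraries, and its low share of 1.517% is a share of that larger total. With those genes left out of the totals, the sums were 16082 ± 725 and 16716 ± 1259 CPM (SD, n = 5 each).

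The members rose and fell together from liver to liver, and both groups held livers on either side. Taken against its own mean over the 10 livers, the median member stood at 0.08, 0.07, -0.03, -0.12 and 0.00 on the log2 scale in GF+MEV replicates 1 to 5. In GF+PBS replicates 1 to 5 it stood at 0.17, -0.13, 0.02, 0.05 and -0.10. Both the highest and the lowest liver were GF+PBS livers. GF+PBS replicate 1 was above the gene's own mean in 78 of the 79 genes and was the highest of the 10 livers in 54 of them (68.4%), where 13.8% of all genes tested were highest in that liver. GF+PBS replicate 2 was above the mean in 0 of the 79 and the lowest liver in 30 of them (38.0%), against 8.0% of all genes. GF+MEV replicate 4 was the lowest in 26 (32.9%, against 11.2% of all genes). With counts scaled by library size alone, GF+PBS replicate 1 was the highest liver in 74 of the 79.

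Most of the spread between livers of a group was shared by the members. Within a group the SD of a member's log2 CPM was 0.13 at the median, and it was 0.06 after the median of the members in each liver was subtracted. For the 70 members that averaged 50 CPM or more these values were 0.12 and 0.06. For all genes at that level the median SD was 0.11 before any such step, which was not taken for them. GF+PBS replicate 1 also stood highest in the median of the mitochondrial ribosomal protein genes, at 0.15 above their means, and at 0.08 in the 5′TOP translation factors, where GF+MEV replicate 1 stood at 0.09. The summed CPM of 6 hepatocyte markers (*Alb*, *Apoa1*, *Ttr*, *Serpina1a*, *Cyp2e1*, *Ass1*) was 109345 in GF+PBS replicate 1 and 96015 in replicate 2, within a range of 91356 to 112289 over the 10 livers. The lowest hepatocyte sum was in GF+MEV replicate 4. The summed CPM of 4 B cell markers (*Cd79a*, *Cd79b*, *Ms4a1*, *Cd74*) did differ between the groups, at 60.7 to 90.2 with MEV and 98.0 to 141 with PBS. Most of this sum was *Cd74*, at a mean of 72.04 CPM with MEV and 106.5 CPM with PBS, so its ranges mainly show that gene. *Cd79a*, the next highest with PBS, had a mean of 2.39 CPM there. Of the 4 markers 3 were called lower, *Cd74*, *Cd79a* and *Cd79b*. The biliary marker *Krt19* was called higher with MEV, at 0.964 to 16.8 CPM against 0.303 to 0.781 CPM (edgeR adjusted p = 0.000631). The biliary marker *Sox9* lay the other way, with a log2 fold change of -0.98 and overlapping groups, and was not called (edgeR adjusted p = 0.103). The biliary markers *Epcam* and *Krt7* were not among the genes tested. The hepatocyte marker *Ass1* was also called higher (adjusted p = 0.0091). The summed CPM of 5 Kupffer cell markers was highest in GF+MEV replicate 4, at 323 where the other 9 livers lay between 158 and 275. The part of cell makeup in the shared movement was not tested, and fewer cells of a type cannot be told from less RNA per cell in whole liver. Mitochondrial genes took 3.12% to 4.26% of the counts, and GF+PBS replicate 1, at 3.91%, lay inside that range.

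**Figure D2:**
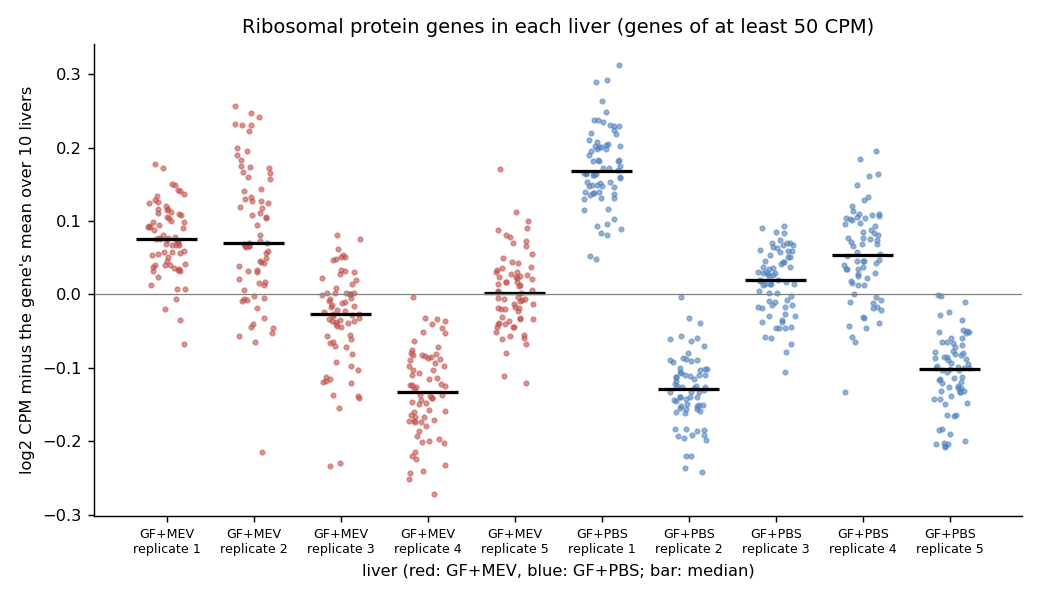
Each point is 1 of the 70 ribosomal protein genes that averaged 50 CPM or more, placed at its log2 CPM minus its mean over the 10 livers, and bars mark the median of a liver. GF+PBS replicate 1 stands above and GF+PBS replicates 2 and 5 and GF+MEV replicate 4 below the other livers, and both groups hold high and low livers.

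The core proteins on which elongation and signalling converge were at nearly the same level in both groups. *Rplp0*, *Rplp1* and *Rplp2* encode the acidic stalk that recruits elongation factors to the large subunit. *Rplp0* was at 624, 588, 593, 593 and 608 CPM in GF+MEV replicates 1 to 5 and at 672, 581, 637, 631 and 547 CPM in GF+PBS replicates 1 to 5. Its GF+PBS values spanned those of GF+MEV on both sides, and its log2 fold change was -0.03 (95% interval -0.15 to 0.10, edgeR adjusted p = 0.838). *Rplp1* was at 563, 531, 523, 492 and 534 CPM with MEV and at 592, 489, 553, 541 and 476 CPM with PBS, a log2 fold change of -0.00 (95% interval -0.14 to 0.14). It had the highest level per length of all members, 1061 CPM per kb of transcript. *Rplp2* was at 187, 168, 169, 153 and 156 CPM with MEV and at 194, 162, 173, 183 and 149 CPM with PBS, again with overlapping groups.

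*Rps6* encodes the small subunit protein S6, which S6 kinase phosphorylates downstream of mTORC1. It was at 313, 293, 303, 277 and 294 CPM with MEV and at 315, 279, 299.6, 311 and 284 CPM with PBS, a log2 fold change of -0.01 (95% interval -0.12 to 0.11, edgeR adjusted p = 0.953). The groups covered almost the same range. *Rpl10*, which joins the large subunit late in its assembly and is encoded on the X chromosome, was at 529 ± 42.7 CPM (SD, n = 5) with MEV and 530.1 ± 42.0 CPM (SD, n = 5) with PBS.

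The largest difference among the abundant members was in *Rps2*, a small subunit protein of the mRNA entry site (ENSMUSG00000044533, chromosome 17, 24718116 to 24721929 of GRCm38). It was at 794, 791, 732, 684 and 733 CPM with MEV and at 908, 754, 807, 833 and 733 CPM with PBS. GF+PBS replicate 1 was again the highest liver, and 2 GF+PBS values lay inside the GF+MEV range. The log2 fold change was -0.11 with a standard error of 0.07, and the edgeR adjusted p was 0.388 (exact two-sided permutation test over all labelings of 5 livers against 5, p = 0.135). *Rpl41*, the smallest ribosomal protein, was at 212 ± 14.1 CPM with MEV and 228 ± 28.3 CPM with PBS (SD, n = 5 each), with an adjusted p of 0.507 by edgeR. *Rps21* was at 91.6 ± 9.79 CPM and 98.1 ± 11.4 CPM (SD, n = 5 each), with an adjusted p of 0.574 by edgeR.

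The variant paralogs are encoded by genes of their own and stand in for, or differ from, a core protein in some tissues. *Rpl22l1* (ENSMUSG00000039221, chromosome 3, 28805436 to 28807424, plus strand) encodes the paralog of RPL22, and RPL22 protein is known to hold *Rpl22l1* mRNA down. *Rpl22l1* was at 7.20, 7.87, 8.06, 6.57 and 7.97 CPM in GF+MEV replicates 1 to 5. In GF+PBS replicates 1 to 5 it was at 7.61, 5.88, 5.65, 5.66 and 5.34 CPM. All GF+MEV livers lay above 4 of the 5 GF+PBS livers, and GF+PBS replicate 1 lay within the GF+MEV range. The log2 fold change was 0.32 with a standard error of 0.10 (95% interval 0.08 to 0.57), and the gene did not pass over all genes, with an edgeR adjusted p of 0.117 (unadjusted 0.0154). An exact two-sided permutation test gave p = 0.0238, where the smallest possible value is 0.00794. Without GF+PBS replicate 1, the liver in which most members were highest, the log2 fold change was 0.42 and the edgeR adjusted p was 0.0318. Over the other 20 alternatives the adjusted p stayed between 0.0585 and 0.228.

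Its partner *Rpl22* was at 101, 95.4, 91.5, 91.6 and 95.4 CPM with MEV and at 103, 90.6, 98.3, 97.5 and 94.2 CPM with PBS. These values overlapped, with a log2 fold change of -0.03 (95% interval -0.14 to 0.09). *Rpl22l1* stood at 7.13% to 8.81% of the *Rpl22* CPM in GF+MEV livers and at 5.68% to 7.40% in GF+PBS livers, and these ranges also overlapped. Of the 100-base stretches of the *Rpl22l1* transcript, 50.8% also occur in a transcript of another gene, the largest share of them in *Gm15421*, so that a read from these stretches fits more than 1 gene. None of the stretches of *Rpl22* is shared.

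*Rpl3l*, a paralog of *Rpl3* used in striated muscle, was the lowest member per length at 1.66 CPM per kb. It was at 1.40, 2.14, 2.27, 2.30 and 1.93 CPM with MEV and at 1.499, 1.51, 3.33, 2.48 and 4.02 CPM with PBS. GF+PBS replicates 1 and 2 lay within the GF+MEV range and replicates 3 to 5 above it, and the log2 fold change of -0.34 had a 95% interval from -0.83 to 0.36 (edgeR adjusted p = 0.519). The summed CPM of 4 striated muscle markers (*Acta1*, *Ckm*, *Myh4*, *Mylpf*) was 191, 229, 664, 478 and 642 in GF+PBS replicates 1 to 5 and 309.8, 303, 258, 265 and 224 in GF+MEV replicates 1 to 5. The 3 GF+PBS livers with the highest *Rpl3l* were the 3 with the highest muscle sum, whereas the GF+MEV liver with the highest muscle sum, replicate 1, had the lowest *Rpl3l* of its group. The part of muscle RNA in the *Rpl3l* counts was not tested. *Rpl3* itself was at 331 ± 24.1 CPM with MEV and 339.8 ± 20.4 CPM with PBS (SD, n = 5 each).

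*Rps27l*, whose transcription p53 is known to raise, was at 115, 121, 89.6, 93.4 and 107 CPM with MEV and at 129, 95.04, 107, 103 and 101 CPM with PBS. The log2 fold change was -0.03 (95% interval -0.23 to 0.17). *Rps27* was at 74.1 ± 9.48 CPM with MEV and 72.2 ± 7.69 CPM with PBS (SD, n = 5 each). *Rps27l* therefore had more counts than its partner in every liver, at 131% to 161% with MEV and 139% to 155% with PBS. Of the 100-base stretches, 98.4% of those of *Rps27* and none of those of *Rps27l* are shared with another annotated transcript, and the part of shared sequence in this ratio was not tested. *Rpl7l1* was at 49.5 ± 3.73 CPM and 48.5 ± 3.57 CPM (SD, n = 5 each), and *Rpl7* at 289 ± 24.0 CPM and 287 ± 19.6 CPM. *Rpl39*, the partner of *Rpl39l*, was at 64.0 ± 4.97 CPM and 64.6 ± 6.79 CPM. *Rps4x* was at 261 ± 13.5 CPM and 262 ± 18.9 CPM. *Rps4l*, annotated as a transcribed pseudogene and so no member, was at 28.1 ± 5.95 CPM with MEV and 37.9 ± 5.24 CPM with PBS (SD, n = 5 each), with an edgeR adjusted p of 0.0727 and overlapping groups. DESeq2 called it with an adjusted p of 0.0329.

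**Figure D3:**
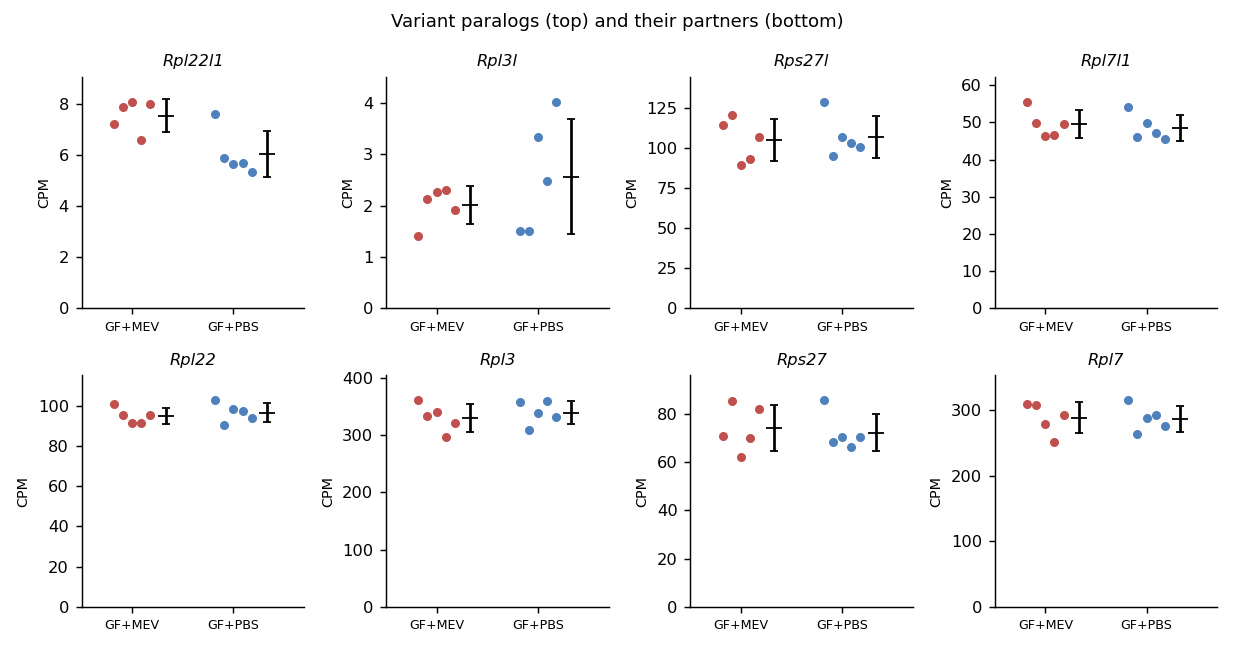
Each panel plots CPM from 0 on its own scale for the 5 GF+MEV (red) and 5 GF+PBS (blue) livers, in the order of the replicate numbers, with the mean and SD in black beside them. The upper row holds *Rpl22l1*, *Rpl3l*, *Rps27l* and *Rpl7l1* and the lower row their partners. In *Rpl22l1* a single GF+PBS liver, replicate 1 at 7.61 CPM, lies within the GF+MEV range.

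Levels across the members ran from 1.11 CPM for *Rps10* to 777 CPM for *Rps2*, although most of the proteins are used in equal numbers. Per length of transcript the range was 1.66 to 1061 CPM per kb with a median of 253. The highest 3 were *Rplp1*, *Rps2* at 778 and *Rpl10* at 663 CPM per kb, and the lowest 3 were *Rpl3l*, *Rps10* at 2.23 and *Rpl13a* at 2.77 CPM per kb. Of the 79 genes, 70 had a mean of at least 50 CPM. The other 9 included *Rpl3l*, *Rpl22l1* and *Rpl7l1* among the paralogs and *Rps10*, *Rpl13a*, *Rpl35*, *Rpl23a* and *Rpl30* among the core proteins.

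These 5 core genes shared features of the annotation. In 10 of the 79 genes at least 15% of the exon bases also lie in an exon of another annotated gene, and all 5 were among these 10. In *Rpl13a* (chromosome 7, 45125558 to 45128761, minus strand) 35.4% of the exon bases lie in genes of the same strand, *Gm45713*, *Mir5121* and *Snord33*. In *Rps10* 20.6% lie in the read-through gene *RPS10-NUDT3* on the same strand. In *Rpl35* 66.2% and in *Rpl23a* 59.7% lie in genes of the other strand, *Arpc5l* and *Wdr38* for the first and *Tlcd1* for the second. *Rpl5*, *Rpl31*, *Rpl32* and *Rps25*, also among the 10, were at 143 to 234 CPM. Their overlap was smaller than that of *Rpl13a*, *Rpl35* and *Rpl23a*. The overlap of *Rpl30*, at 36.3 CPM, was no larger than that of *Rpl5*, *Rpl31* or *Rps25*. Across the 79 genes the Spearman correlation of exon overlap was -0.197 with CPM per kb and -0.108 with CPM. In its default mode HTSeq does not assign a read that falls on more than 1 gene, and whether it was run with strand is not given in the sources used here. The part of this step and of shared stretches in the low values was not tested. With this untested, levels compared between members are uncertain, while the comparison between groups sets each gene against itself.

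**Figure D4:**
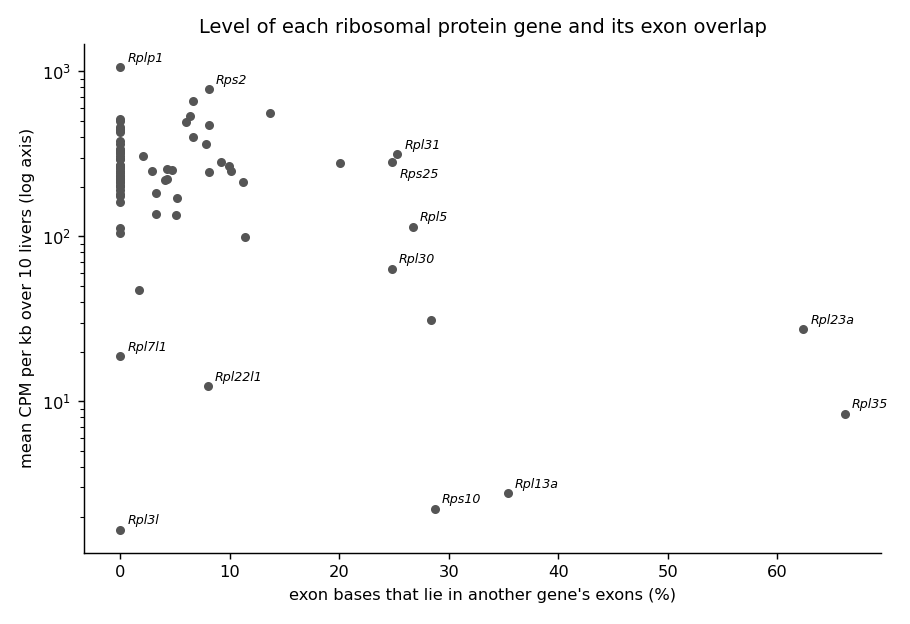
Each of the 79 genes is placed by the percentage of its exon bases that lie in another gene's exons and by its mean CPM per kb of transcript on a log axis. The 3 genes above 30% overlap, *Rpl35*, *Rpl23a* and *Rpl13a*, lie between 2.77 and 27.4 CPM per kb, against a median of 253 for all 79.

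*Rpl13a* is the gene the study used as the mouse reference for quantitative PCR. In these counts it was at 3.11, 2.90, 2.94, 2.47 and 3.41 CPM with MEV and at 3.44, 2.19, 2.68, 2.73 and 3.18 CPM with PBS. The groups overlapped over nearly their whole range, and the log2 fold change was 0.06 with a 95% interval from -0.27 to 0.41 (edgeR adjusted p = 0.880). The gene had as few as 39 counts in a library, and its interval was wider than that of 76 of the 79 members. *Rps10* was at 1.05 ± 0.299 CPM with MEV and 1.17 ± 0.373 CPM with PBS (SD, n = 5 each).

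The genes lie on 19 chromosomes, with 14 on chromosome 7 and 4 on the X chromosome. In 31 of the 79, exons or introns enclose small RNA genes on the same strand, 63 in all, mostly small nucleolar RNAs that guide the modification of ribosomal RNA. The median log2 fold change was 0.01 for the 31 host genes and -0.00 for the other 48. In 70 of the 79 at least 1 stretch of 100 bases is shared with a pseudogene, with up to 39 pseudogenes for a single gene. In 34 genes over 50% of the stretches are shared, and their median log2 fold change was 0.01. The 7 genes that share no stretch had a median of -0.03, with 6 of 7 below 0.

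Proteins of the ribosome whose symbols do not match the naming pattern gave the same picture. *Fau*, *Rpsa* and *Rack1* were tested, and 0 of 3 were called. *Rpsa* was at 536 ± 42.2 CPM with MEV and 539.9 ± 46.9 CPM with PBS, and *Rack1* at 364 ± 15.3 CPM and 367 ± 30.6 CPM (SD, n = 5 each). *Fau* was at 212 ± 15.9 CPM and 222 ± 25.3 CPM.

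The rest of the translation machinery was set against the same shares over all genes, 7.64% called and 21.2% at an unadjusted p under 0.05. Of 23 translation factors and other genes with a known 5′TOP tract, such as *Eef1a1* and *Eef2*, 0 were called, with 19 above 0 and a median log2 fold change of 0.04. Of 38 other translation factors 0 were called, with 25 above 0 and a median of 0.04. Of 77 mitochondrial ribosomal protein genes, which build the separate ribosome of mitochondria, 0 were called, with 59 below 0 and a median of -0.07. Over all genes 5949 of 12147 were above 0. The medians moved with the scaling. With library size alone those of the 3 lists, in the same order, were -0.04, -0.03 and -0.14, where that of all genes was -0.08. With upper-quartile factors they were -0.00, -0.00 and -0.11, where that of all genes was -0.05. At an unadjusted p under 0.05 these 3 lists had 3, 2 and 5 genes. With an offset for GC content and length, 1 gene of each of these 3 lists was called higher. With library size alone, 2 mitochondrial ribosomal protein genes were called lower. Leaving out a liver gave 0 or 1 call in each list, each of them higher.

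Among 75 tested ribosome assembly and nucleolar factors 1 was called higher and 1 lower, with a median log2 fold change of 0.05. That median was 0.00 with upper-quartile factors and -0.03 with library size alone. *Ftsj3*, a methyltransferase that acts on precursor ribosomal RNA, was at 41.6, 38.2, 37.5, 40.7 and 38.6 CPM with MEV and at 33.4, 34.3, 35.6, 31.1 and 32.1 CPM with PBS. The groups did not overlap, and the log2 fold change was 0.24 with a standard error of 0.04 (edgeR adjusted p = 0.0248). The call was lost in 8 of 21 alternatives, among them the fits without GF+MEV replicate 1 (0.0652) or 4 (0.057) and without GF+PBS replicate 4 (0.072) or 5 (0.0537). The other 4 were the replicate block (0.0779), alike GF+PBS livers summed (0.0635), upper-quartile factors (0.0647) and library size alone (0.188). *Myc*, a transcription factor that drives ribosome production, was at 2.99, 5.24, 3.67, 6.01 and 3.47 CPM with MEV and at 7.33, 3.19, 7.97, 21.9 and 19.9 CPM with PBS. GF+PBS replicates 4 and 5 were far above the other livers and replicate 2 was within the GF+MEV range. Its log2 fold change was -1.50 with a standard error of 0.54 (edgeR adjusted p = 0.0414), and limma-voom did not call it (adjusted p = 0.167). The call was also lost without any 1 of GF+MEV replicates 1, 2, 3 and 5 and GF+PBS replicates 4 and 5, with edgeR adjusted p between 0.0628 and 0.121, and where alike GF+PBS livers were summed (adjusted p = 0.118).

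Of 35 genes of mTORC1 signalling 1 was called higher and 1 lower, a share near the 7.64% of all genes tested. *Ddit4* encodes REDD1, an inhibitor of mTORC1. It was at 88.6, 86.3, 57.9, 109 and 75.6 CPM with MEV and at 5.61, 5.16, 6.43, 4.19 and 5.10 CPM with PBS. The groups were far apart, with a log2 fold change of 3.98 and a standard error of 0.18 (edgeR adjusted p = 2.96e-09). *Pdcd4*, an inhibitor of the helicase eIF4A whose protein is degraded after phosphorylation by S6 kinase, was at 71.6, 68.1, 72.1, 81.8 and 77.7 CPM with MEV and at 102, 83.9, 109, 85.9 and 96.6 CPM with PBS. It was lower in all 5 GF+MEV livers, with a log2 fold change of -0.36 and a standard error of 0.09 (edgeR adjusted p = 0.0116). It lost the call where alike GF+PBS livers were summed (adjusted p = 0.054). Beside these genes the ribosomal protein mRNAs, whose translation mTORC1 is known to control, had 0 calls in 79. The counts do not measure mTORC1 activity or translation.

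**Figure D5:**
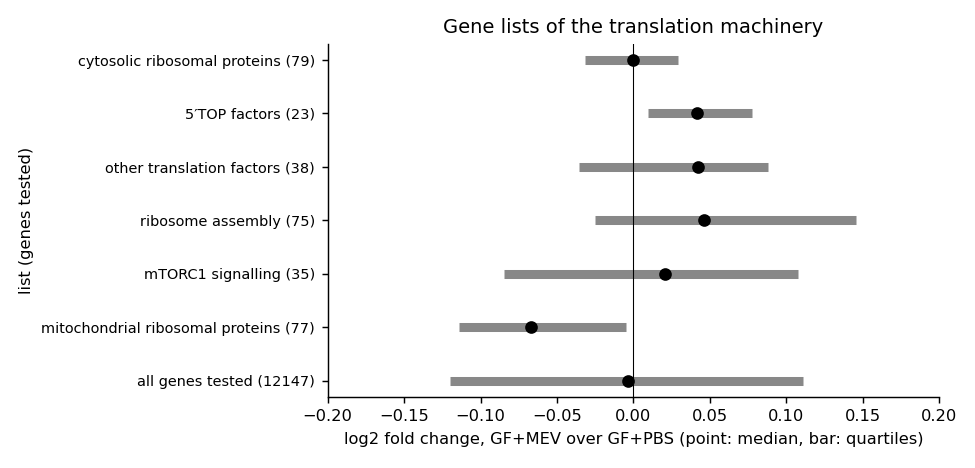
Points are the median and bars the quartiles of the log2 fold change of GF+MEV over GF+PBS for each list, with the number of genes tested in brackets. The bar of the 79 cytosolic ribosomal protein genes, from -0.03 to 0.03, is the narrowest, and that of the mitochondrial ribosomal proteins lies below 0 with a median of -0.07.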

How the data were processed

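Raw read counts per Ensembl gene were deposited by the authors without normalization. Per the labels and the study's methods, whole liver RNA was extracted with Trizol, cleaned on RNeasy columns, prepared with the NEBNext Ultra kit, converted with bcl2fastq 2.17, aligned to GRCm38 with STAR 2.7.3a and counted with HTSeq, and genes with fewer than 20 counts were left out. The strand setting of HTSeq is not given in the sources used here. The table also held 5 columns that match none of the samples described here, and these were not used. Libraries held 15746119 to 20523649 gene counts.

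Genes with at least 20 counts over the 10 livers were tested with edgeR 4.0.16 in R 4.3.3 (TMM factors, quasi-likelihood fit on treatment alone, Benjamini-Hochberg adjustment over 12147 genes, threshold 0.05). For standard errors, log2 CPM were computed with 2 as the prior count, and 95% intervals from limma-voom (limma 3.58.1). Exact two-sided permutation tests ran over all labelings of 5 livers against 5. Livers were taken as separate samples. The fits were tested on simulated data.

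The members and lists were chosen with earlier results of these data known. The genes named were called members or, with fewer than 5, the 5 with the smallest p, the variant paralogs and their partners, *Rpl13a*, the stalk proteins and *Rps6*, the 3 highest and lowest per kb, and the called genes of the lists. *Rpl35*, *Rpl23a* and the other members of low level were named after their values were seen. Transcript length, exon overlap, enclosed small RNAs and shared stretches of 100 bases came from GENCODE M21, with 1 coding transcript per gene. Start sequences came from RefSeq. Alternatives were DESeq2 1.42.0, limma-voom, other scalings and filters, a block for the replicate numbers, summed alike GF+PBS livers, an offset for GC content and length, and each liver left out in turn. Some genes of these lists are not reported here by name.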

Additional observations from a re-analysis of the deposited data

Results flagged for a closer look

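Of 46 groups of 5 livers, 2 held a liver far from the other 4, by Dixon's ratio of the gap to the range with a critical value of 0.71. Chance gives about 1 in 20, or 2.3 in 46. Both were in GF+PBS replicate 1, the liver in which 54 of the 79 ribosomal protein genes were highest. *Rpl22l1* was at 7.61 CPM in that liver, where the other 4 GF+PBS livers lay between 5.34 and 5.88 CPM. *Rps27* was at 85.6 CPM, where the other 4 lay between 66.4 and 70.5 CPM.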

How the results depend on the processing

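The number of ribosomal protein genes called higher was 0 in the 11 alternatives that keep all livers and 0 to 1 where each liver was left out in turn, the 1 being *Rpl22l1* without GF+PBS replicate 1. The number called lower was 0 in every alternative run. The median log2 fold change of the members ran from -0.075 with library size alone to 0.049 with the offset for GC content and length. With a liver left out it ran from -0.03 to 0.05. The median member log2 CPM had an SD of 0.115 between single livers of a group, which is not the error of a difference between group means. The number of members below 0 ranged from 13 to 57 of 79 with a liver left out, the lowest without GF+PBS replicate 1, so no direction can be given for the group. Of 441 values of the named genes under the alternatives, 53 had the other sign, in 13 genes whose log2 fold change was at most 0.06, with adjusted p of at least 0.408. *Rps4l* was called lower in 5 alternatives, which were DESeq2, upper-quartile factors, library size alone, and the fits without GF+MEV replicate 2 or GF+PBS replicate 2. The difference of the summed CPM, GF+MEV minus GF+PBS, was -65.2 with TMM factors, -927 with library size alone and -634 without the ribosomal RNA genes. Each was smaller in size than the SD of the GF+PBS livers. With library size alone the SD was 704 CPM in GF+MEV and 1248 CPM in GF+PBS livers, so that difference exceeded the GF+MEV SD. These SDs are of single livers and not errors of the difference. The looser reading of the 5′TOP start moved the share of members from 22.03% to 49.15%.

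With a replicate block the number called stayed at 0 and the median was 0.004, and the count over all genes went from 928 to 792. The labels give no shared litter or day for a number, the correlations of same-numbered deviations were 0.166, -0.0844, -0.0522, -0.188 and 0.0586, and 3 of 10 livers correlated best with their own number, so the numbers were not taken as pairs. The 5 members under 10 CPM, with as few as 11 counts in a library, had the widest intervals of the 79, and counting error was not separated there from the spread between livers. A gene under the threshold is not shown to be equal between the groups.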
